A study of Mus musculus with 12 samples.

Results

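Platelets attach to injured vessel walls and to each other through 4 membrane receptor systems, and the 8 genes of these systems were followed here in megakaryocytes (MKs), the cells that make platelets. The genes were chosen by name for the proteins they encode, with earlier results of these data known. They were Gp1ba, Gp1bb, Gp5 and Gp9 for the GPIb-IX-V complex, Itga2b and Itgb3 for integrin αIIbβ3, Gp6 for GPVI, and Clec1b for CLEC-2. All 8 were found among the 55536 genes counted, and all 8 passed the expression filter of edgeR, which left 20263 genes. Of these 8, 6 would pass on the libraries of a splenic group alone, while Gp1ba and Gp1bb passed through their BM libraries. Together the 8 genes held 0.0745% to 0.296% of all counts in BM libraries and 0.0096% to 0.0956% in splenic ones.

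The MKs came from BM and from spleen of Pf4-TdTomato mice on the C57BL/6 strain, male and female and 8 to 12 weeks old as given for the study's mice in general. The mice had received saline or a nonlethal i.p. dose of cecal slurry, a suspension of gut contents that causes sepsis, 5 days earlier. Each of the 2 tissues was taken after each of the 2 treatments, which gave 4 groups of 3 independent replicates, and every library was made from 300 sorted cells. All groups carried the same alleles, a Cre recombinase driven by the promoter of the platelet chemokine gene Pf4 and a Rosa26 reporter that turns red once Cre has acted, so the red signal records past as well as present Pf4 expression. Cells also had to be CD45+, negative for lineage markers, and positive for CD41 and CD42b. CD41 is the protein of Itga2b and CD42b the protein of Gp1ba, so 2 of the 8 genes encode proteins on which the cells were selected. Whether BM and spleen of the same mouse were used, and whether mice were pooled, is not given in the sources used here.

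In the circulation, GPIbα of the GPIb-IX-V complex binds von Willebrand factor and slows platelets on the vessel wall. GPVI then binds collagen and signals through the Fc receptor γ chain, and CLEC-2 binds podoplanin and signals through its own cytoplasmic motif. Both reach Syk and phospholipase Cγ2, and the activated integrin αIIbβ3 binds fibrinogen and joins platelets together. The genes are switched on as MKs mature, and transcription factors of the GATA and ETS families are known regulators of MK genes.

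The windows of 250 bases before the annotated start were examined to show what the promoters share. RefSeq promoters on GRCm38.p6 were matched by symbol for 7 of the 8 genes, all but Itgb3. A GATA word (AGATAA or TGATAA, either strand) stood in 4 of the 7 windows, and in 16.6% of the 32851 windows of this length in the table. An ETS word (AGGAAG or CGGAAG, either strand) stood in 5 of the 7 windows and in 39.2% of all windows, and both words stood in 2 of the 7 and in 5.49% of all. The 4 windows with a GATA word are shown, because they include Gp1ba, which lies at the upper end of the fitted tissue differences described below, and Gp6, which lies at the lower end. GATA and ETS words are in capitals, no matches overlapped, and each sequence is read 5′ to 3′ on the strand of its gene. Gp1ba (plus strand) is chr11:70638872-70639121, Gp5 (minus strand) is chr16:30310782-30311031, Clec1b (plus strand) is chr6:129397047-129397296 and Gp6 (minus strand) is chr7:4397745-4397994.
Gp1ba: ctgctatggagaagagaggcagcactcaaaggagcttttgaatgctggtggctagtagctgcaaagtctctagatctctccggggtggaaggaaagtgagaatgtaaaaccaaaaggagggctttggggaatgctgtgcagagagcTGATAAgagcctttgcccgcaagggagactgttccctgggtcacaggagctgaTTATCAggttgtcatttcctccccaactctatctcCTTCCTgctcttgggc
Gp5: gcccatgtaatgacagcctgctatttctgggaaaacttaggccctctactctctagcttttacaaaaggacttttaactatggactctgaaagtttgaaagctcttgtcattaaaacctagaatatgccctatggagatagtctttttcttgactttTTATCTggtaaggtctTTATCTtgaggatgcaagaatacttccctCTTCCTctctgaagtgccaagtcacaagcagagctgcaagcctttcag
Clec1b: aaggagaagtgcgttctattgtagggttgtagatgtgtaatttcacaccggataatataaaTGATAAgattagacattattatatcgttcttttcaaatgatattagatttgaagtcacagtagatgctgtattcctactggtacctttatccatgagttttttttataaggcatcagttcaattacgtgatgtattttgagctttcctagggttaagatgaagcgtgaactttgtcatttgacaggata
Gp6: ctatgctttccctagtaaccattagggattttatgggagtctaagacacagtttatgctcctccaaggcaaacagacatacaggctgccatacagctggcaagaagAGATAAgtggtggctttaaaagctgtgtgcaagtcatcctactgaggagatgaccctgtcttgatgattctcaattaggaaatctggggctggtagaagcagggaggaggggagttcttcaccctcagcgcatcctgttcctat
Gp1ba held a GATA word at 104 and another at 51 bases before its start, with an ETS word at 16 bases. Gp5 held GATA words at 93 and 77 bases and an ETS word at 48 bases. The single GATA words of Clec1b and Gp6 stood at 189 and 144 bases. The matches are a description of the letters, and binding was not measured here.

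Libraries held 7756762 to 27386184 counts, and levels are given as CPM, the counts of a gene as a proportion of its library's total on edgeR's TMM scale. A count of 0 allows up to 3 counts, equal to between 0.105 and 0.405 CPM, and this limit covers counting error only. No 2 replicates agreed within counting error (chi-square of 62.2 or more per degree of freedom for every pair). The most unlike pair was splenic replicates 1 and 3 after sepsis (644), and splenic replicate 3 after sepsis also stood apart in 5 of the 8 genes below. The summed level of 20 other MK and platelet markers was between 13010 and 49880 CPM in BM libraries and between 1511 and 3861 CPM in splenic libraries. B cell RNA moved the opposite way. The summed level of 13 B cell markers was between 131 and 1037 CPM in BM and between 17040 and 52240 CPM in spleen, and none of the 13 was at 0 in all libraries of a group. Plasma cell markers (8 genes) summed to between 1485 and 4697 CPM in BM and between 7761 and 80830 CPM in spleen. Most of this sum in spleen was Jchain, with means of 58840 CPM after saline and 23380 CPM after sepsis. Most of the B cell sum in spleen was Ighm, the immunoglobulin µ heavy chain. It reached between 57.2 and 848 CPM in BM and between 13310 and 44070 CPM in spleen. Neutrophil markers (9 genes) were uneven among the splenic libraries. Replicates 1 to 3 summed to 21170, 430 and 339 CPM after saline and to 10420, 66.2 and 181 CPM after sepsis. The part of B cell, plasma cell and neutrophil RNA in the differences below was not tested. In such bulk libraries, fewer MKs among the sorted cells and less RNA per MK cannot be told apart.

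The first comparison asked how MKs of the 2 tissues differ in these genes at baseline. After saline, the fitted level of all 8 receptor genes was higher in BM MKs than in splenic MKs, with log2 fold changes (log2FCs) between 1.22 for Gp6 and 4.04 for Gp1ba. Gp1ba and Gp1bb had passed the filter through their BM libraries, which favored a higher BM level for them before any test. The other 6 genes were all positive as well, between 1.22 for Gp6 and 3.32 for Itgb3. Counts and medians of the 8 genes below include Gp1ba and Gp1bb. A gene was called where its p, adjusted over all genes tested (the adjusted p), was under 0.05 in edgeR. Itgb3 was called and the other 7 genes were not. That is 1 of 8 genes, where 1.25% of all genes tested were called in either direction, and 6 of the 8 had an unadjusted p under 0.05, against 12.5% of all genes. The median log2FC of the 8 genes was 2.22, against -0.28 for all genes tested, and 43.5% of all genes had a positive value. In 6 of the 8 genes every BM library lay above every splenic library, against 11.3% of all genes, and the exceptions were Gp1bb and Gp6.

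Itgb3 encodes integrin β3, the subunit that αIIb needs to reach the cell surface, and lies on chromosome 11 (104608000 to 104670476, plus strand). It had 314, 305 and 233 CPM in the 3 BM libraries after saline and 11.9, 17.9 and 55.7 CPM in the 3 splenic libraries. The groups did not overlap, and the highest splenic library stayed well below the lowest BM library. The log2FC was 3.32 (SE 0.81, edgeR adjusted p = 0.0496), which sits at the edge of the threshold of 0.05. Over 23 alternative settings the log2FC ranged from 3.05 to 4.30 and the adjusted p from 0.000232 to 0.138. The call was lost without BM replicate 1 of saline (adjusted p = 0.0519), without splenic replicate 1 (0.0878) or 2 (0.104) of saline, with RLE factors (0.0706), with the stricter filter (0.0637) and with limma-voom (0.138).

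Itga2b encodes αIIb, the CD41 of the sort, and lies on chromosome 11 (102453297 to 102470122, minus strand). Its BM libraries after saline had 372, 351 and 297 CPM, and its splenic libraries had 23.0, 28.5 and 93.4 CPM. The groups were again separate, and the log2FC of 2.82 (SE 0.99) was not called (edgeR adjusted p = 0.252). The 2 integrin genes thus had alike ranges in BM and splenic replicate 3 was the highest splenic library for both.

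The gene of the subunit that binds von Willebrand factor had splenic counts as low as 1. Gp1ba (chromosome 11, 70639122 to 70642036, plus strand) had 35.2, 28.2 and 57.6 CPM in BM after saline. In spleen it had 0.135, 0.413 and 6.76 CPM, from 1, 5 and 63 counts. The cells of the first library had been sorted as positive for the CD42b protein, and that library held a single Gp1ba count, which is within the limit that a count of 0 allows. The log2FC was 4.04 (SE 1.45, edgeR adjusted p = 0.266), and without splenic replicate 3 of saline it was 7.15 and called (adjusted p = 0.0222).

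The other 3 genes of the complex also had higher means in BM after saline, and Gp5 and Gp1bb spread more widely in spleen than in BM. Gp9 (chromosome 6, 87778072 to 87779768, plus strand), which the complex needs for its surface expression, had 230.5, 140.3 and 58.4 CPM in BM and 47.4, 14.3 and 45.9 CPM in spleen after saline. Gp5 (chromosome 16, 30307685 to 30310779, minus strand), a thrombin-cleaved subunit, had 80.1, 91.0 and 93.4 CPM in BM and 43.5, 2.15 and 7.62 CPM in spleen. For both genes the lowest BM library lay above the highest splenic one, and neither log2FC was called (1.996, SE 0.816, edgeR adjusted p = 0.357, for Gp9 and 2.31, SE 1.09, adjusted p = 0.396, for Gp5). Gp1bb (chromosome 16, 18620317 to 18622403, minus strand), which links GPIbα to the membrane, had 15.1, 5.87 and 8.72 CPM in BM and 0.406, 9.82 and 0.322 CPM in spleen. Its groups overlapped because splenic replicate 2 lay above 2 of the BM libraries. In the annotation 91.1% of the exon bases of Gp1bb are shared with Sept5 and 41.5% with Gm49601, on the same strand, so its counts are uncertain. Sept5 and Gm49601 held at most 35 and 50 counts in any library, and adding their counts to Gp1bb changed the number of genes called in none of the 6 comparisons. This cannot settle the uncertainty, since reads dropped where genes overlap would be in none of these counts. Gp1bb was also far from the threshold in all comparisons (lowest edgeR adjusted p = 0.286).

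The 2 signaling receptors came next. Clec1b (chromosome 6, 129397297 to 129409335, plus strand) had 469, 425 and 213 CPM in BM and 102, 85.5 and 66.2 CPM in spleen after saline, without overlap. Its log2FC of 2.13 (SE 0.83) was not called (edgeR adjusted p = 0.323). Gp6 (chromosome 7, 4363965 to 4397744, minus strand) had 30.9, 74.5 and 40.4 CPM in BM and 21.8, 33.7 and 6.97 CPM in spleen. Splenic replicate 2 lay within the BM range, and the log2FC of 1.22 (SE 0.91) was the lowest of the 8 (adjusted p = 0.616).

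**Figure D1:**
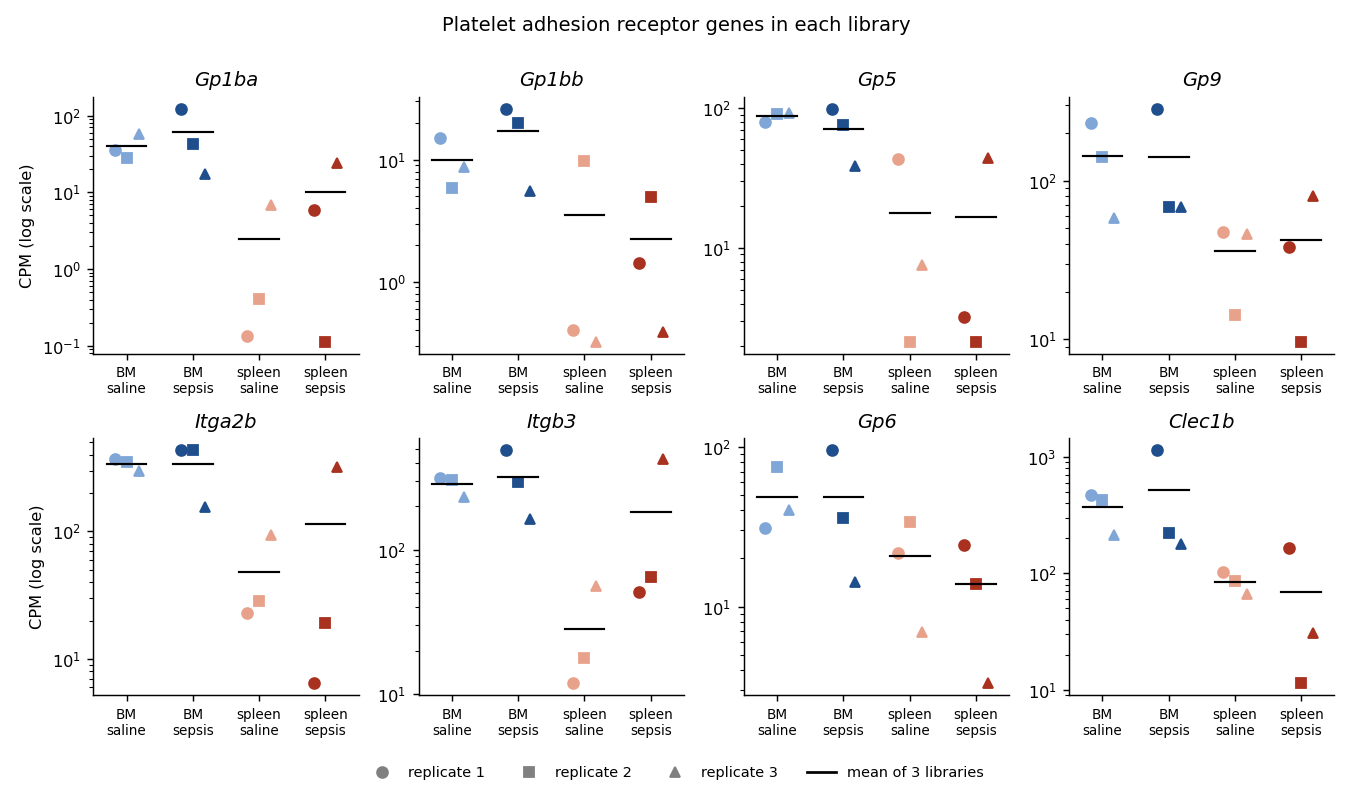
CPM of the 8 receptor genes (log scale) in each of the 12 libraries, with 1 panel per gene, symbols for the replicate number and a bar at the mean of the 3 libraries of each group. Splenic replicate 3 after sepsis reaches 320.5 CPM of Itga2b and 426.5 CPM of Itgb3, inside the range of the BM libraries, but is the lowest splenic library for Gp6 and Gp1bb in its group.

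The same comparison was then made after sepsis. All 8 log2FCs were again positive (median 1.96, against -0.18 for all genes; 45.1% of all genes were positive), but edgeR called none of the 8 genes, where 1.78% of all genes were called. At an unadjusted p under 0.05 there were 2 genes, Clec1b and Gp9, against 12.9% of all genes, while DESeq2 and limma-voom called 1 gene each, Clec1b and Itga2b. Only Clec1b and Gp1bb had BM libraries that all lay above the splenic ones, 2 of 8 genes against 11% of all genes. Gp1bb, like Gp1ba, had passed the filter through its BM libraries, which favored a higher BM level.

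Clec1b had 1150, 224 and 179 CPM in BM and 164, 11.3 and 30.5 CPM in spleen after sepsis. The log2FC was 2.91 (SE 0.86, edgeR adjusted p = 0.109), and it was 4.76 and called (adjusted p = 0.00141) without splenic replicate 1 of sepsis. Over its 23 alternatives the adjusted p ranged from 0.000622 to 0.542, and 10 of them called the gene, 6 of which left out a single library. Gp1bb had 26.2, 20.2 and 5.51 CPM in BM and 1.44, 4.93 and 0.388 CPM in spleen, a log2FC of 2.94 (SE 1.63, adjusted p = 0.414) from counts as low as 4.

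In Itga2b, Itgb3, Gp5, Gp9 and Gp1ba the splenic libraries after sepsis were split. Itga2b had 435, 432 and 156 CPM in BM and 6.43, 19.2 and 320.5 CPM in spleen. Itgb3 had 488, 294 and 164 CPM in BM and 50.7, 64.8 and 426.5 CPM in spleen. In both integrin genes splenic replicate 3 lay above BM replicate 3, and the other 2 splenic libraries lay below every BM library. Gp5 had 99.6, 76.1 and 38.6 CPM in BM and 3.19, 2.13 and 44.4 CPM in spleen. Gp9 had 284.5, 68.2 and 68.5 CPM in BM and 38.1, 9.64 and 79.5 CPM in spleen. Gp1ba had 123.5, 43.2 and 17.2 CPM in BM and 5.91, 0.112 and 24.0 CPM in spleen, where the lowest value was a single count. Splenic replicate 3 was thus the highest splenic library of its group in all 5 of these genes and overlapped BM in each. Gp6, with 95.5, 35.9 and 14.3 CPM in BM and 24.2, 13.9 and 3.30 CPM in spleen, had the opposite order, and replicate 3 was its lowest splenic library.

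Leaving out splenic replicate 3 of sepsis changed the integrin values. Without it, Itga2b was called in both tissue comparisons, with a log2FC of 2.85 (edgeR adjusted p = 0.0106) for saline and of 4.76 (adjusted p = 0.000688) for sepsis. Gp5 was called for sepsis with a log2FC of 4.75 (adjusted p = 0.0220). The log2FC of Itgb3 after sepsis was 0.80 (SE 0.75, adjusted p = 0.701) with all libraries and 2.47 (adjusted p = 0.0582) without that library. The same library had 2067 CPM over the 20 other MK markers, within the 1511 to 2100 CPM of its group, and 790 CPM of Pf4, the highest of its group. Its immunoglobulin and T cell receptor segments took 13% of its counts, against 23.5% to 30.1% in the other splenic libraries, its 8 plasma cell markers summed to 7761 CPM against 30900 and 35670 CPM in its group, while its 13 B cell markers summed to 47160 CPM against 38130 and 31170 CPM, the highest of its group. Most of the B cell sum was Ighm (43520 CPM against 27340 and 21660 CPM). The rest of that sum was lower in this library than in the others of its group. Cd79a, a chain of the B cell receptor, was at 125 CPM against 2829 and 2525 CPM. The part of these differences in its receptor levels was not tested.

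**Figure D2:**
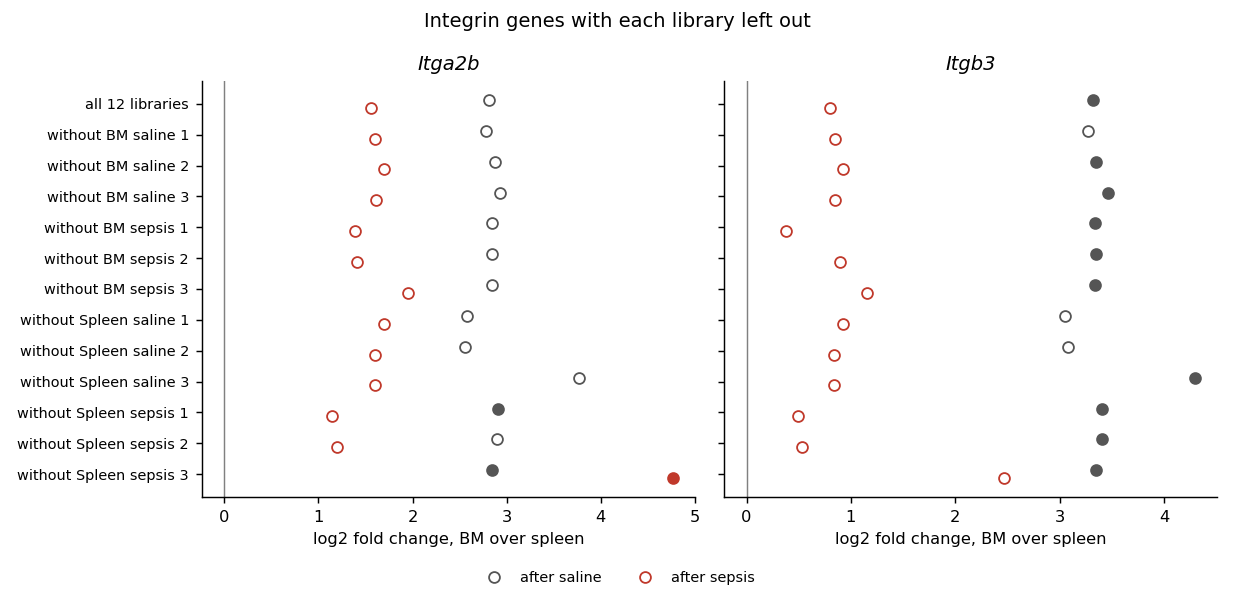
Log2FC between BM and spleen of Itga2b and Itgb3 with all 12 libraries and with each library left out in turn, after saline (grey) and after sepsis (red). Filled points have an adjusted p under 0.05 in edgeR. Leaving out splenic replicate 3 of sepsis moves Itga2b after sepsis from 1.56 to 4.76 and Itgb3 from 0.80 to 2.47.

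Over both treatments together, 2 of the 8 genes were called as higher in BM MKs, where 2.07% of all genes were called as higher, 2.68% as lower and 4.75% in either direction. All 8 log2FCs were positive, against 46.9% of all genes, and 7 of the 8 genes had an unadjusted p under 0.05, against 19.3%. The 8 include Gp1ba and Gp1bb, which had passed the filter through their BM libraries. Clec1b had a log2FC of 2.52 (SE 0.60, edgeR adjusted p = 0.0154), and it was the only one of the 8 genes for which all 6 BM libraries lay above all 6 splenic libraries, a separation that 2.56% of all genes showed. Itgb3 had a log2FC of 2.06 (SE 0.54, adjusted p = 0.0323). The other 6 genes had log2FCs between 1.52 (Gp6, adjusted p = 0.204) and 3.33 (Gp1ba, adjusted p = 0.0612). Over the alternatives between 1 and 6 of the 8 genes were called, and the call of Clec1b was lost with limma-voom (adjusted p = 0.102) and that of Itgb3 with RLE factors (0.0603).

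Both BM means exceeded both splenic means in each of the 8 genes. Neighbors in the order of the 4 group means had overlapping libraries, apart from BM saline over spleen saline for Clec1b and BM saline over spleen sepsis for Gp1ba. As means ± SD (n = 3), Itgb3 was at 315 ± 163 CPM in BM after sepsis, 284 ± 44.3 CPM in BM after saline, 181 ± 213 CPM in spleen after sepsis and 28.5 ± 23.7 CPM in spleen after saline. Clec1b was at 517.5 ± 548 CPM in BM after sepsis, 369 ± 137 CPM in BM after saline, 84.5 ± 17.9 CPM in spleen after saline and 68.6 ± 83.2 CPM in spleen after sepsis. The order of the 2 splenic groups thus differed between the 2 genes, within a spread that covered both.

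The effect of sepsis within each tissue was examined next. In BM MKs edgeR called none of the 8 genes and none of all genes tested (0%), with 0 of the 8 and 717 of all genes (3.54%) at an unadjusted p under 0.05. DESeq2 called 206 genes and limma-voom 0, and neither called one of the 8, though DESeq2 gave Itga2b no adjusted p in any comparison, so that its counts cover 7 of the 8 genes. Log2FCs of the 8 genes lay between -0.30 (Gp5) and 0.80 (Gp1bb), and BM replicate 1 after sepsis was the highest library of its group in all 8 genes. The summed level of 9 neutrophil markers was between 93.4 and 272 CPM in BM after saline and 2248, 11160 and 16710 CPM after sepsis, and the third of these libraries also had the lowest sum of the 8 receptor genes in BM (642.5 CPM). None of the 9 markers was at 0 throughout a group, and the part of neutrophil RNA in these values was not tested. In splenic MKs edgeR called none of the 8 genes and 0.158% of all genes (0.0592% as higher and 0.0987% as lower). Itgb3 had the largest difference, with a log2FC of 2.66 (SE 0.79), an unadjusted p of 0.00313 and an adjusted p of 0.294, and it was the only one of the 8 at an unadjusted p under 0.05, against 13.1% of all genes. DESeq2 called Itgb3 (2.62, adjusted p = 0.0280), limma-voom called none of the 8 (Itgb3 adjusted p = 0.806), and without splenic replicate 3 of sepsis the value of Itgb3 was 1.05 (adjusted p = 0.444). The other 7 log2FCs lay between -0.65 (Gp1bb) and 2.03 (Gp1ba).

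The tissue by sepsis interaction asked whether the effect of sepsis differed between tissues. edgeR called 0 of the 8 genes and 0% of all genes, and so did limma-voom, while DESeq2 called 0 of the 8 and 495 of all genes. Itgb3 was the only one of the 8 at an unadjusted p under 0.05 (7.68% of all genes were), with an interaction of -2.51 on the log2 scale (SE 1.06, unadjusted p = 0.0290, adjusted p = 0.619). The 3 BM libraries after sepsis included values above and below the saline range of Itgb3, whereas 2 of the 3 splenic libraries after sepsis lay above the saline range and the other within it.

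**Figure D3:**
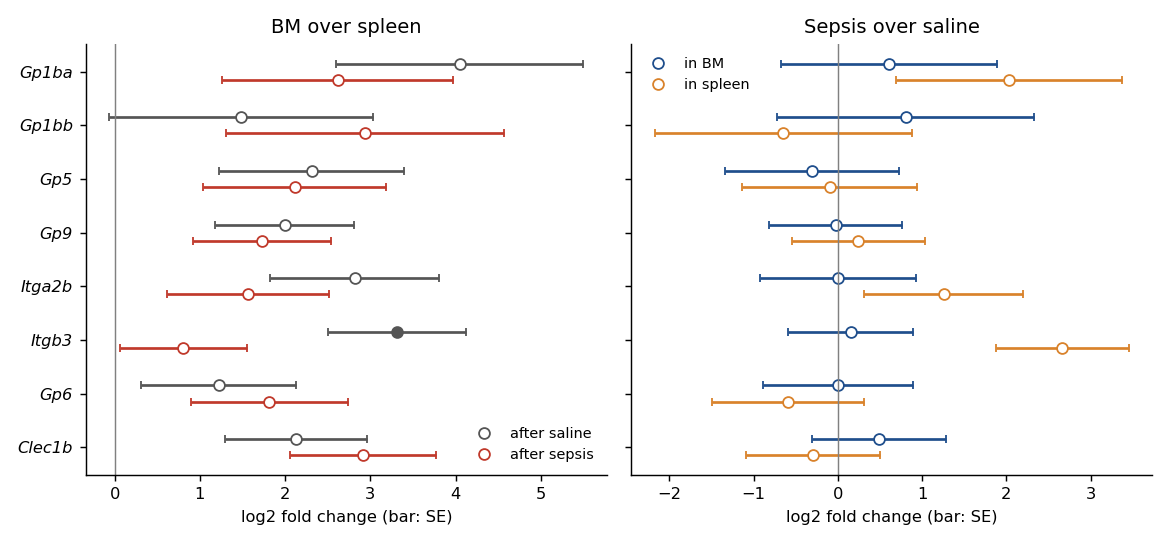
Log2FCs of the 8 genes from edgeR between BM and spleen (left, after saline in grey and after sepsis in red) and between sepsis and saline (right, in BM in blue and in spleen in orange), with bars of 1 SE. Filled points have an adjusted p under 0.05, which holds for Itgb3 after saline (3.32) alone in the 4 comparisons drawn. All 16 points on the left lie above 0.

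The relation of the 8 genes to each other was described on a scale per length, CPM per kb of annotated exon, since counts grow with transcript length. In BM the 4 genes of GPIb-IX-V made up 50.9% ± 5.2 of the summed level of the 8 genes, the 2 integrin genes 28.8% ± 7.69, Clec1b 18.4% ± 4.73 and Gp6 1.92% ± 0.745 (SD, n = 6). In spleen the shares were 52.0% ± 11.3, 25.6% ± 18.3, 17.9% ± 13.1 and 4.54% ± 3.92. Each share spread more in spleen than in BM. The means of the 2 tissues lay within 1 SD of the splenic libraries for all 4 systems, but so wide an SD cannot show that the shares were the same. The splenic mean of Gp6 lay above its highest BM library (2.96%). The integrin share ran from 19.6% to 40.8% over the BM libraries and from 6.0% to 51.0% over the splenic ones, and the Clec1b share was between 13.8% and 27.1% in BM and between 2.32% and 34.4% in spleen. Splenic replicate 3 after sepsis held both the highest integrin share and the lowest shares of Clec1b and of Gp6 (0.218%).

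These shares depend on the length taken for Clec1b, whose annotated exons cover 5103 bases while its longest coding transcript has 1090. With the longest coding transcript of each gene, Clec1b made up 48.0% ± 7.88 in BM and 43.4% ± 24.4 in spleen, and GPIb-IX-V 28.8% ± 3.48 and 31.6% ± 9.08. Which isoforms were present was not measured here, so the rank of Clec1b among the receptors is uncertain, whereas the wider spread in spleen was seen with both lengths.

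**Figure D4:**
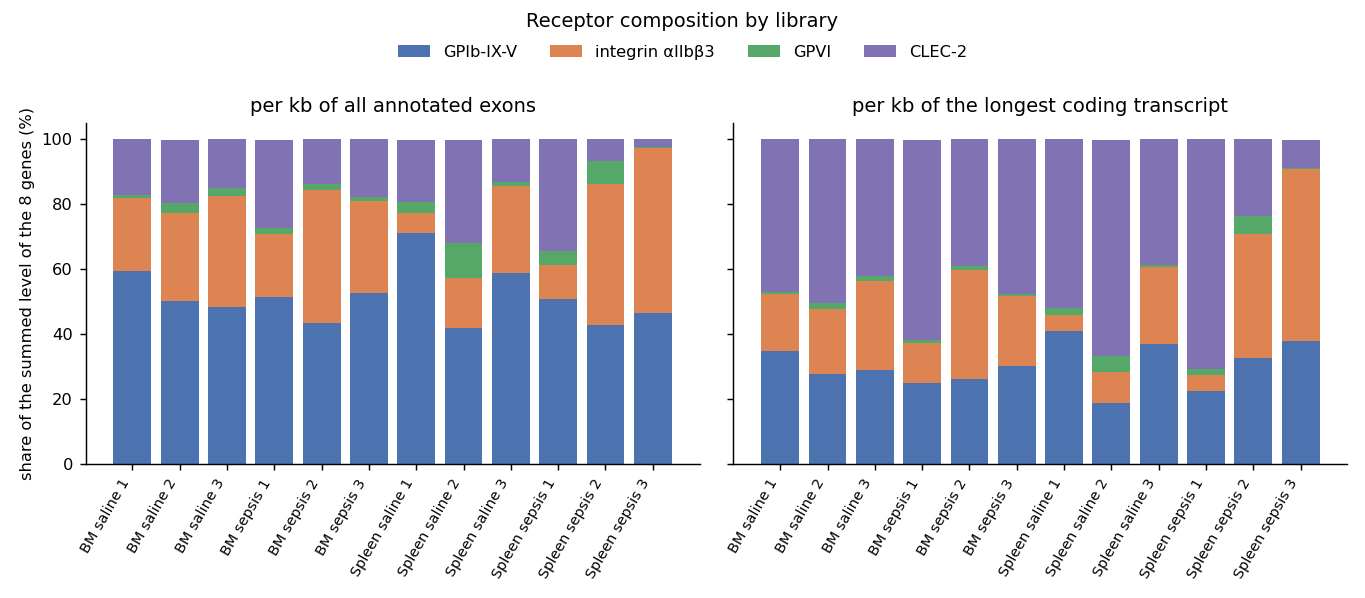
Share (%) of each receptor system in the summed per-length level of the 8 genes in each library, with lengths from all annotated exons (left) or the longest coding transcript (right). BM libraries look alike, with integrin shares on the left between 19.6% and 40.8%, while splenic libraries range from 6.0% to 51.0%.

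Levels were also set against Pf4, the gene whose promoter drives the reporter. Pf4 itself ranged from 9606 to 30580 CPM in BM and from 476 to 2439 CPM in spleen. For each library the log2 ratio of a receptor gene to Pf4 was taken, with a prior count of 2. In all 8 genes the mean ratio was higher in spleen, by between 0.05 (Gp1ba) and 2.93 (Gp6) on the log2 scale, but with a prior count of 0.5 Gp1ba turned to 0.28 higher in BM and 7 of the 8 were higher in spleen. With Ppbp, another platelet chemokine gene, as the reference the ratio was higher in spleen for 2 of the 8 genes (Gp9 and Gp6). Gp9 was the only gene whose ratios to Pf4 did not overlap, between -8.46 and -6.24 in BM and between -5.73 and -3.31 in spleen. The ratio of Itga2b to Pf4 was between -6.13 and -4.88 in BM and between -6.55 and -1.30 in spleen. Ratios to Pf4 thus overlapped between tissues in every receptor gene but Gp9. Apart from Gp9 and Gp6, the direction of the mean difference depended on the gene chosen as the reference. The ratios were described and not tested.

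The genes whose profile over the 12 libraries was nearest to the mean profile of the 8 receptor genes were taken by the root mean square difference of log2 CPM after centering each gene on its own mean. They were Ppfia1 (0.41), Tln1 (0.58), Etfb (0.59), Plek (0.65), Ppat (0.66) and Lgalsl (0.66), where the median over all genes tested was 2.25. Tln1 encodes talin-1, which binds the tail of integrin β3, and Plek encodes pleckstrin, a major substrate of protein kinase C in platelets. The 8 receptor genes themselves lay between 0.75 (Gp9) and 1.66 (Gp1ba) from their own mean. Each of the 2 integrin genes had the other as its nearest gene among the 8 (1.09), and Gp9 and Clec1b were likewise nearest to each other (1.01).

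Genes of ligands, partner receptors and sheddases of the 8 receptors were examined as a list of 24, of which 20 were tested. After saline 2 were called as higher in BM and 1 as lower, where 0.523% and 0.725% of all genes were, and after sepsis 3 as higher and 1 as lower, where 0.597% and 1.18% were. Their median log2FCs were 0.84 and 1.41, against -0.28 and -0.18 for all genes. Vwf, the ligand of GPIbα, had 265, 261.5 and 283 CPM in BM and 18.5, 1.90 and 50.5 CPM in spleen after saline, and 416, 305 and 116 CPM in BM and 32.0, 34.4 and 44.1 CPM in spleen after sepsis. All BM libraries lay above all splenic ones, and the log2FC was 3.51 (SE 0.83, edgeR adjusted p = 0.0392) for the saline groups, while it was 2.92 and not called for the sepsis groups (SE 0.80, adjusted p = 0.0790).

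The genes of the thrombin receptors were higher in BM as well. F2r, which encodes PAR1, had between 172 and 340.1 CPM in BM libraries and between 1.79 and 33.0 CPM in splenic libraries. It was called in the saline groups (log2FC 3.86, SE 0.69, edgeR adjusted p = 0.00675) and in the sepsis groups (5.64, SE 0.75, adjusted p = 0.000336). F2rl2, which encodes PAR3, the thrombin-binding receptor of mouse platelets, had between 188 and 638 CPM in BM and between 1.49 and 77.3 CPM in spleen and was called after sepsis (4.83, SE 1.06, adjusted p = 0.0207). F2rl3, which encodes PAR4, the receptor that signals in mouse platelets, had between 13.9 and 34.1 CPM in BM and between 0 and 0.858 CPM in spleen, where 3 of the 6 libraries held a count of 0. It was called over both treatments (adjusted p = 0.00647).

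Fcer1g encodes the γ chain that carries the signal of GPVI, and it differed between tissues after sepsis. It had 732, 1697 and 732 CPM in BM and 1242, 1279 and 726 CPM in spleen after saline, a log2FC of -0.04 (SE 0.52, edgeR adjusted p = 0.995). After sepsis it had 1027, 291 and 960.3 CPM in BM but 135.5, 133 and 94.6 CPM in spleen, and the groups did not overlap. Fcer1g was higher in BM after sepsis (2.65, SE 0.56, adjusted p = 0.0148) and fell with sepsis in spleen (-3.16, SE 0.57, adjusted p = 0.0307), whereas its interaction of 2.69 was not called (adjusted p = 0.543). The same γ chain serves the IgE receptor of basophils and mast cells. In spleen the summed level of 6 markers of those cells was between 2579 and 4333 CPM after saline. After sepsis it was between 33.4 and 624 CPM there. In BM it was between 4743 and 28460 CPM after saline and between 2584 and 6486 CPM after sepsis. With sepsis in spleen edgeR called 2 of the 6 (Cpa3 and Ms4a2) as lower, where 0.0987% of all genes were. After sepsis it called 5 of the 6 as higher in BM than in spleen, where 0.597% of all genes were. None of the 6 was at 0. Other marker sums were lower in spleen after sepsis as well. Monocyte and macrophage markers summed to between 1493 and 2723 CPM after saline and between 274.7 and 944 CPM after sepsis. NK cell markers summed to between 297.9 and 1909 CPM and between 98.41 and 233.3 CPM. The plasma cell sums were lower too, while B cell, T cell, neutrophil, erythroid and other MK marker sums overlapped. The part of any of these cells in the levels of Fcer1g in either tissue was not tested.

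Over both treatments 6 genes of the list were called as higher in BM and 2 as lower, where 2.07% and 2.68% of all genes were. The higher genes were Adam10, F2r, F2rl2, F2rl3, Itga6 and Vwf. Adam10, a sheddase of GPVI, had a log2FC of 1.61 (SE 0.45, edgeR adjusted p = 0.0422), and Itga6, a laminin receptor subunit, 1.95 (SE 0.46, adjusted p = 0.0163). The 2 genes called as lower were Cd36 and Cd72. Cd72, a B cell surface protein, had between 0.215 and 8.54 CPM in BM and between 14.3 and 130 CPM in spleen (log2FC -5.05, SE 0.77, adjusted p = 0.000369), and 41.6% of its exon bases overlap Tesk1 on the other strand. Cd36, a thrombospondin and fatty acid receptor of platelets, macrophages and B cells, had between 0 and 6.70 CPM in BM and between 7.57 and 279 CPM in spleen (-5.29, SE 0.76, adjusted p = 0.000228). Both of these lower genes are also expressed by B cells, whose markers were higher in spleen. The part of B cell RNA in the differences of Cd36 and Cd72 was not tested.

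**Figure D5:**
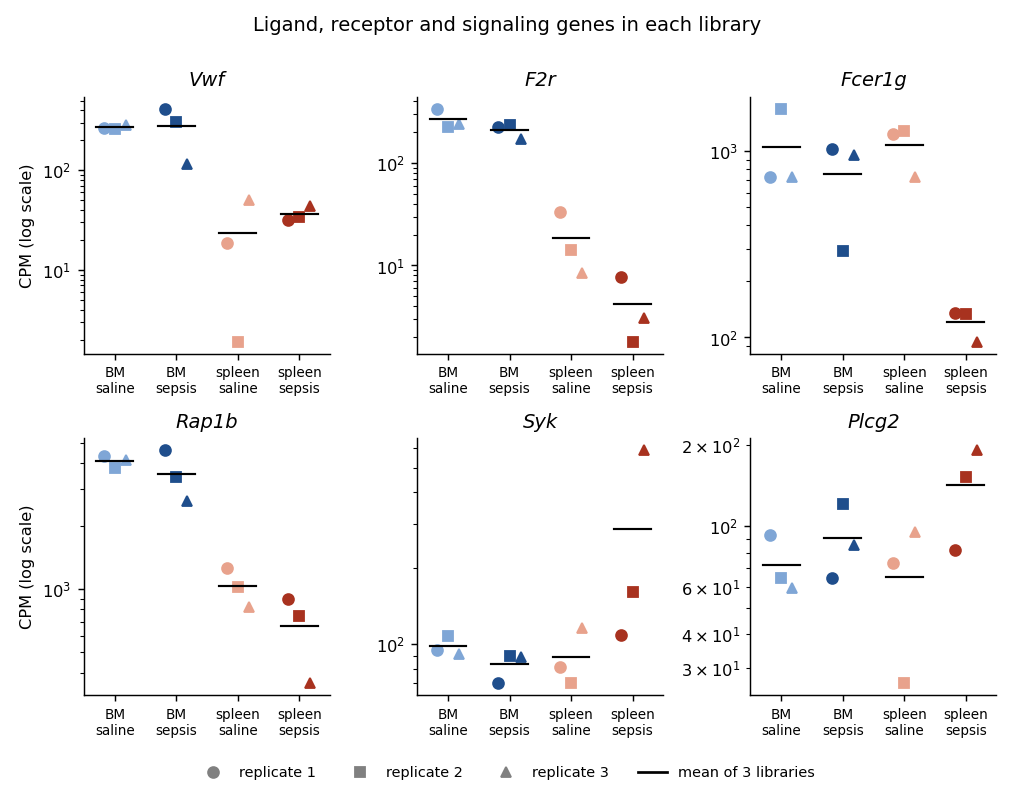
CPM (log scale) of Vwf, F2r, Fcer1g, Rap1b, Syk and Plcg2 in each library, with symbols for the replicate number and a bar at the mean of the 3 libraries. Fcer1g reaches between 94.6 and 135.5 CPM in spleen after sepsis, below all other libraries, whereas Syk reaches 588 CPM in splenic replicate 3.

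Genes of the signaling paths downstream were examined as a list of 28, of which 27 were tested. After saline 1 was called as higher in BM and after sepsis 1 as higher and 1 as lower, where 0.523% of all genes were called as higher after saline, and 0.597% as higher and 1.18% as lower after sepsis. The median log2FCs of the list were 0.67 and 0.46, against -0.28 and -0.18 for all genes. The gene called as higher in both was Rap1b, a small GTPase that switches on integrins, with log2FCs of 1.98 (SE 0.45, edgeR adjusted p = 0.0323) and 2.41 (SE 0.45, adjusted p = 0.00661). Its BM libraries lay between 2620 and 4607 CPM and its splenic libraries between 355 and 1256 CPM. The gene called as lower in BM after sepsis was Rac2, a GTPase of blood cells (-2.12, SE 0.53, adjusted p = 0.0444).

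The genes that act on the integrin and those shared by GPVI and CLEC-2 are given side by side, and the difference between the 2 sets was not tested. Over both treatments, talin-1 (Tln1, log2FC 1.70, SE 0.44, edgeR adjusted p = 0.0276), kindlin-3 (Fermt3, 1.87, SE 0.45, adjusted p = 0.0161), Rap1b and Src were called as higher in BM and Rac2 as lower, which is 4 and 1 of 27 genes where 2.07% and 2.68% of all genes were. Rasgrp2, the exchange factor of Rap1b, was not called (0.40, SE 0.42, adjusted p = 0.627). Syk (-0.82, SE 0.42, adjusted p = 0.293), Plcg2 (-0.25, SE 0.42, adjusted p = 0.787) and Lcp2, the adaptor SLP-76 (1.83, SE 0.76, adjusted p = 0.190), were not called either. Syk had between 70.4 and 108 CPM in BM libraries and between 70.0 and 161 CPM in 5 splenic libraries, and splenic replicate 3 after sepsis was at 588 CPM. Syk and Plcg2 also serve the B cell receptor, and B cell markers were higher in spleen, so their levels in MKs alone cannot be told apart from those of B cell RNA. Ilk, which encodes a scaffold of integrin tails, was listed at 0 in all 12 libraries, and 76.8% of its exon bases overlap Taf10 on the other strand.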

How the data were processed

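The authors amplified RNA of sorted MKs with the SMART-Seq HT kit, prepared sequencing libraries by Nextera XT and deposited raw counts of reads for 55536 genes, whole numbers without normalization. The submitters' processing notes name GRCm38, STAR 2.7.2b, R 3.6.1 and DESeq2 1.26, and no source used here gives the counter, its annotation or its strand setting. Positions, lengths and overlaps came from GENCODE M21 on GRCm38, where every identifier was found.

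Tests were run on the deposited counts in R 4.3.3 by edgeR 4.0.16 (filterByExpr, minimum count 10, TMM, 4 group means, quasi-likelihood F test, 8 residual degrees of freedom). P-values were adjusted over all 20263 genes by Benjamini-Hochberg with a threshold of 0.05. SEs are |log2FC| over the root of F. The common coefficient of variation between libraries was 143%, so replicate spread limits the precision more than depth where counts are high. Counting error adds to it where counts are low, as for Gp1ba and Gp1bb in spleen. Alternatives used limma 3.58.1 (voom with quality weights), DESeq2 1.42.0, RLE factors, library size alone, no filter, a filter of 10 counts in 6 libraries, only the 6 libraries compared, a replicate block, thinning to 7756762 counts, removal of immunoglobulin and T cell receptor segments, each library left out and, chosen after seeing the data, Gp1bb summed with Sept5 and Gm49601. Figures were drawn in Python 3.11.15 (pandas 2.3.3, matplotlib 3.10.9). The fit was also run on simulated data, whose outcome is not given here. A gene that was not called is not shown to be unchanged.

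The 8 genes, the gene lists and the tests were chosen with earlier results of these data known. The text names the 8 genes, the called genes of the partner and signaling lists with some fixed ones, Pf4, Ppbp, Ighm, Cd79a and the 6 nearest profiles. Cpa3, Ms4a2, Jchain and Ilk were named after their values were seen.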

Additional observations from a re-analysis of the deposited data

Results flagged for a closer look

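Cd36, a receptor of the partner list, was picked out because its libraries moved in opposite directions with sepsis in the 2 tissues. In BM it had 6.70, 3.58 and 3.12 CPM after saline and 1.57, 0 and 1.23 CPM after sepsis, so every library after sepsis lay below every saline library. In spleen it had 7.57, 44.8 and 42.9 CPM after saline and 279, 255 and 85.3 CPM after sepsis, so every library after sepsis lay above. The interaction in edgeR was -4.93 on the log2 scale (SE 1.35, unadjusted p = 0.0017) and did not pass the adjustment over all genes (adjusted p = 0.531).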

How the results depend on the processing

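The 8 receptor genes kept a positive log2 fold change between BM and spleen under all alternatives run, and the calls did not hold as well. Of 184 values after saline 170 kept direction and side of the threshold, 6 lost and 7 gained the call, and 1 (Itga2b in DESeq2) had no adjusted p. Of 184 after sepsis 13 gained it, and of 176 over both treatments 39 gained and 2 lost it. The cause of these changes was not tested. The spread between 3 libraries a group limits the calls, the sort used the proteins of 2 of the genes, and B cell RNA differs with tissue. Gp1ba and Gp1bb passed the main filter through their BM libraries.

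After saline 1 of the 8 genes was called, against 0 with RLE factors, the stricter filter and limma-voom, 2 with DESeq2 and 4 without a filter. After sepsis none was called, against 1 with library size alone, without a filter, with DESeq2 and with limma-voom. For sepsis in spleen 1 was called without a filter and with DESeq2. Over both treatments 2 were called, against 1 with RLE factors, 4 with DESeq2 and 6 with library size alone or without a filter. With 1 library left out the counts ranged from 0 to 2 after saline, 0 to 2 after sepsis and 2 to 6 over both, where 6 came without splenic replicate 3 of sepsis. Among all genes, edgeR called 253 after saline, 361 after sepsis, 0 for sepsis in BM, 32 for sepsis in spleen, 0 for the interaction and 962 over both treatments. In this order, no filter gave 529, 595, 81, 187 and 130 for the first 5 and DESeq2 gave 1312, 1472, 206, 986, 495 and 2615. Limma-voom gave 724 after sepsis, 0 in spleen and 1517 over both, library size alone 1515 over both, the stricter filter 20 in spleen, and the 6 libraries compared alone 0 in spleen. Leaving out 1 library gave 197 to 467, 307 to 512, 0 to 12, 48 to 138, 3 to 48 and 810 to 1151.

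The labels number the replicates alike in all groups, and same-numbered libraries did not deviate together (18 correlations between -0.0566 and 0.0447). These correlations come from libraries with a wide spread and include pairs across treatments. They cannot decide whether BM and spleen libraries of the same number came from the same mouse. With a replicate block, 1 of the 8 genes was called after sepsis (Clec1b) and 4 over both treatments, and all-gene counts were 288, 401, 0, 33, 0 and 955. The log2 fold change of Clec1b with sepsis in BM became -0.038.

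No value between tissues reversed. Reversals among uncalled effects of sepsis in BM (35 of 184 values) were Itga2b at -0.037 with RLE factors and with DESeq2, -0.02 with the stricter filter, -0.31 with limma-voom and -0.023 with thinning. Gp6 was at 0.033 with library size alone, 0.028 without a filter, 0.04 without receptor segments and 0.009 with thinning, and Gp9 at 0.012 and 0.019 without a filter and without segments. With limma-voom Clec1b was at -0.002 and Itgb3 at -0.075. In spleen (13 of 184), library size alone put Gp5 at 0.309, and limma-voom Gp1bb at 1.108, Gp9 at -0.406 and Itga2b at -1.274. For the interaction (19 of 176), limma-voom gave -0.619 for Gp1bb, 0.75 for Gp5, -0.316 for Gp6, 0.304 for Gp9 and 0.964 for Itga2b. With 1 library left out, the effects in BM ranged from -0.859 to 0.913 (Clec1b), -0.409 to 1.058 (Gp1ba), -0.61 to 0.006 (Gp5), -0.946 to 0.477 (Gp6), -1.047 to 0.509 (Gp9), -0.199 to 0.361 (Itga2b) and -0.298 to 0.476 (Itgb3). In spleen they ranged from -2.005 to 0.293 (Clec1b), -1.78 to 2.601 (Gp1bb), -2.703 to 1.746 (Gp5), -0.554 to 0.713 (Gp9) and -1.898 to 2.181 (Itga2b). The interaction ranged from -0.596 to 2.519 (Clec1b), -4.497 to 0.266 (Gp1ba), -1.785 to 2.603 (Gp1bb), -2.034 to 2.415 (Gp5), -0.397 to 1.207 (Gp6), -1.292 to 0.548 (Gp9) and -2.164 to 1.917 (Itga2b).

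With the longest coding transcript the share of GPIb-IX-V was 28.81% in BM and 31.65% in spleen, that of Gp6 1.082% in BM, and that of Clec1b 48.02% in BM and 43.45% in spleen. With 1 library left out, shares by all exons ranged from 49.22% to 52.39% and 48.16% to 54.05% (GPIb-IX-V, BM and spleen), 26.37% to 30.61% and 20.47% to 29.47% (integrin), 1.709% to 2.106% and 3.28% to 5.405% (Gp6), and 16.66% to 19.32% and 14.61% to 21.02% (Clec1b). With Ppbp in place of Pf4, the log2 ratio of BM less spleen was 2.081 for Gp1ba, 0.553 for Gp1bb, 0.862 for Gp5, -0.495 for Gp9, 0.738 for Itga2b, 0.091 for Itgb3, -0.802 for Gp6 and 0.246 for Clec1b.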
